A study of Mus musculus with 4 samples.

Results

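The genes described here are 49 genes of mitosis and the spindle, taken as the rows of the deposited tables whose symbol was on a fixed list of mitotic regulators and structural proteins. All 49 were present once in both tables, among 19968 genes that the tables share, and all 49 passed the expression filter that left 16725 genes for testing. RNA sequencing was done on cerebral cortex dissected at embryonic day 15 from mice of strain C57BL/6. One group carried a conditional deletion of Prdm16 (Prdm16cKO, called cKO) and the other was Prdm16fl/fl, the control with floxed alleles (called floxed). Prdm16 encodes a zinc-finger transcriptional regulator found in cortical stem cells, and the series is titled for its part in communication between neurons and vessels. The sources used here do not give the Cre driver, the deleted exon or any pooling of embryos. The labels name 2 samples of each genotype, the title of 1 of each holding the word Blood, where the design speaks of a triplicate. The tables hold 2 cKO libraries, named cKO 1 and cKO 2, and 1 floxed library.

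Cells entering mitosis switch on a shared set of genes late in the cycle. Cyclin B with Cdk1 starts mitosis, the Aurora and Polo kinases build the spindle, kinetochores tie chromosomes to it, and a checkpoint delays anaphase until every chromosome is attached. The anaphase-promoting complex then destroys cyclin B and securin, separase cuts cohesin, and the cell divides. In the embryonic cortex these transcripts come mainly from radial glia dividing at the ventricle and from intermediate progenitors dividing above them, while neurons have left the cycle. Several of these genes, Aspm among them, are known for microcephaly when mutated. In bulk tissue, fewer dividing cells and less RNA per dividing cell cannot be told apart.

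The mitotic genes share features of their promoters that the list did not use. Genes of this programme are classically described as carrying a cell cycle homology region (CHR), a short element bound by the DREAM and MuvB-type complexes, together with CCAAT boxes bound by the factor NF-Y. RefSeq promoter windows (GRCm38.p6, 250 bases before to 50 after a start) were matched by symbol for 42 of the 49 genes, in 47 windows. The CHR was searched as TTTGAA or TTCGAA and the CCAAT box as CCAAT, each on both strands, so that TTCAAA and ATTGG also count. TTCGAA reads the same on both strands, and a CCAAT match can share its last base with a CHR match. Within 120 bases before a start, 9 genes held both. The 7 shown had at most 30 of those 120 bases inside the gene as the tables place it, and they are printed because they show how closely the elements sit. Capitals mark CHR and CCAAT matches on either strand.
Top2a (chr11:99024190-99024309, minus strand): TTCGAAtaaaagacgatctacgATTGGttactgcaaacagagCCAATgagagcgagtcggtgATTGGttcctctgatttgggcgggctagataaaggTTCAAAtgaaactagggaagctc
Cdc20 (chr4:118437344-118437463, minus strand): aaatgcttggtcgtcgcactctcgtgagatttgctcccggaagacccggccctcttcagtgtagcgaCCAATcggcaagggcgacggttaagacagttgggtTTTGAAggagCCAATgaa
Cdk1 (chr10:69352913-69353032, minus strand): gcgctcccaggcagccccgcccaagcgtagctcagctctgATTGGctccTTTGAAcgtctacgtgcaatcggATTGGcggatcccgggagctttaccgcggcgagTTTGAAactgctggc
Kif11 (chr19:37376262-37376381, plus strand): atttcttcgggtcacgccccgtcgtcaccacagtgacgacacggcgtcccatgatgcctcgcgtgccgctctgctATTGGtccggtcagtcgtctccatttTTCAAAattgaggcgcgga
Espl1 (chr15:102296173-102296292, plus strand): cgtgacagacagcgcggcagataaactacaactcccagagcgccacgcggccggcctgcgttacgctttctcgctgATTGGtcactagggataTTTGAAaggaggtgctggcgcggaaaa
Prc1 (chr7:80294356-80294475, plus strand): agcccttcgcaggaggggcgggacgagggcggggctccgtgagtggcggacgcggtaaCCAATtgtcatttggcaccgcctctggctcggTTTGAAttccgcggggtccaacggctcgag
Ect2 (chr3:27153879-27153998, minus strand): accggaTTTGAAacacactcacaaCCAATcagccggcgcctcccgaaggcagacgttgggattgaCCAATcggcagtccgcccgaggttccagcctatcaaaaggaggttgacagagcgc

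In the stretch printed for Cdk1, the kinase that drives mitotic entry, the CHR stood 71 and 15 bases before the start and CCAAT boxes 80 and 48 bases before it. Top2a, the topoisomerase that untangles sister chromatids, held 2 CHR matches and 3 CCAAT boxes in its printed stretch, and 4 and 6 in its whole window. In Cdc20, the activator of the anaphase-promoting complex, the CHR began 18 bases before the start, and in Kif11, the motor that pushes spindle poles apart, 19 bases before it. Across the list, 30 of 42 genes (71.4%) held a CHR, against 21.7% of all 27025 genes with a window of this length and 16.2% of the 11746 tested genes with one. A CCAAT box was found in 30 of 42 genes (71.4%), against 41.1% of all genes, and both motifs in 1 window in 26 genes (61.9%), against 8.61%. The shares are not particular to this list. Of 60 further mitotic genes 48 had a window, and of these 68.8% held a CHR, 64.6% a CCAAT box and 47.9% both in 1 window. These shares describe letters in a window and not binding.

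By position, the CHR began in the first 25 bases after the start in 27.7% of the 47 windows and in 1.4% of all 32851 windows. In the 53 windows of the further mitotic genes that share was 18.9%, and it was highest, 22.6%, in the last 25 bases before the start. Of a list of 37 DNA replication genes, 29 had a window. Of these 20.7% held a CHR and 65.5% a CCAAT box, while 41.4% held an E2F element, searched as TTTGGCGC, TTTCGCGC or TTTCCCGC on both strands. The E2F element was found in 4 mitotic genes (9.52%) and in 2.12% of all genes. Windows of the mitotic genes had a median GC content of 59.0%, those of all genes 52.7% and those of tested genes 60.3%. The 12 genes without these CHR letters in the window included Ccnb1, Plk4, Birc5 and Nusap1.

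**Figure D1:**
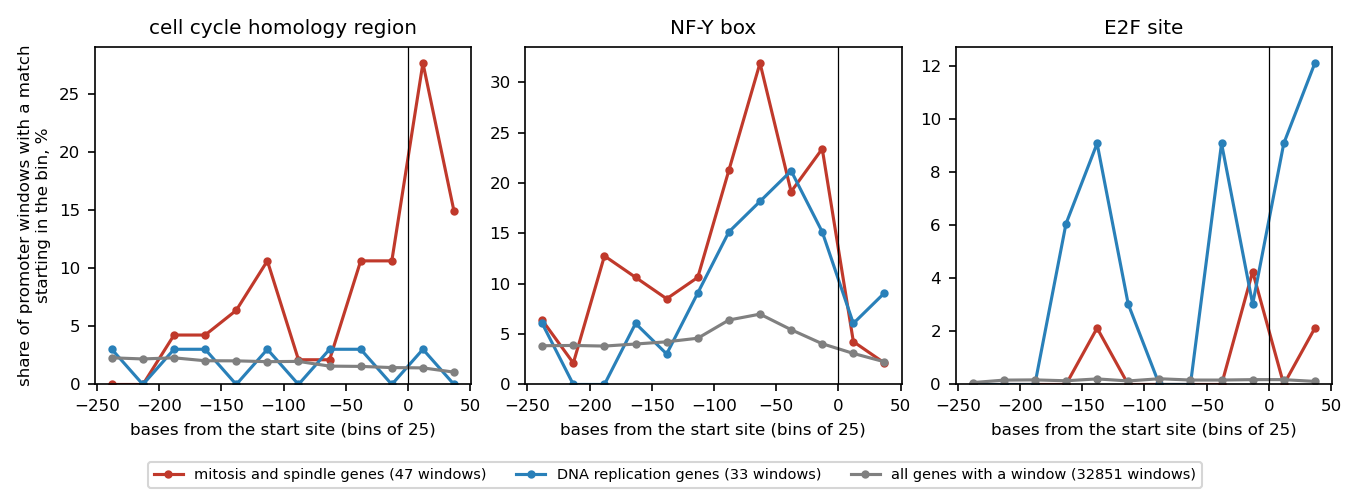
Share of promoter windows (%) in which a match to the cell cycle homology region, the NF-Y box or the E2F site begins, in bins of 25 bases from the start site, for mitosis and spindle genes, DNA replication genes and all genes with a window. The homology region of the mitotic genes peaks at 27.7% in the first bin after the start, where all windows stand at 1.4%.

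The libraries held 19518174 (cKO 1), 18581791 (cKO 2) and 17841685 (floxed) counts. Levels are CPM, counts scaled to those totals, and a ratio is the CPM of a cKO library over that of floxed. Prdm16 itself had 34.6 CPM in cKO 1, 24.1 in cKO 2 and 30.2 in floxed, with a ratio of 1.02 to 1.29 in cKO 1, against its label, and 0.702 to 0.906 in cKO 2 (95% intervals). A count over the whole gene does not check a deletion of unknown exons, and cKO below means a library labelled so. Intervals on ratios are exact (Clopper-Pearson, 95%) and cover counting error only, since reads carry no molecular identifiers. No source says whether the cKO libraries are of different embryos. Errors between libraries are SDs of the 2 cKO libraries, and floxed is 1 library. Markers of some other tissues divided the cKO libraries. Erythroid markers did not: their summed ratios were 0.914 in cKO 1 and 0.738 in cKO 2. Of these 12 genes, 8 lay above floxed in each cKO library. Summed over 11 genes, meninges and fibroblast markers had 1321 CPM in cKO 1, 98.0 in cKO 2 and 847 in floxed. Their defining genes Lum and Aldh1a2 were at 0.161 CPM in cKO 2.

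No mitosis or spindle gene passed the test of cKO against floxed. With the edgeR quasi-likelihood test, 0 of 49 had an adjusted p (Benjamini-Hochberg) under 0.05, and 0 of all 16725 tested genes did (0.0%). At an unadjusted p under 0.05 it called 0 of the 49 as well, against 217 of all tested genes (1.3%), and DESeq2 and limma-voom called none of the 49. The smallest unadjusted p among them was 0.119, for Kif20a, with an adjusted p of 1 (edgeR). Fitted log2 folds ranged from -0.46 (Kif20a) to 0.51 (Cenpk), with a median of 0.06, beside a median of 0.01 over all tested genes. With 2 libraries against 1, this does not show that the levels were equal. The values below are therefore levels and ratios with counting intervals, not calls.

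Summed over the 49 genes, the level was 2448 CPM in cKO 1, 2240 in cKO 2 and 2303 in floxed, ratios of 1.06 and 0.973. In cKO 1, 37 of the 49 genes lay above floxed, where 8763 of all 16725 tested genes did. The median log2 ratio was 0.13, beside 0.01 for all tested genes. In cKO 2, 26 of the 49 lay above, where 7276 of all tested genes did, and the median was 0.02, beside -0.04. Both ratios are taken to the same floxed library. The cKO libraries differed from each other in 1 direction for most members, with 40 of 49 genes higher in cKO 1 than in cKO 2, where 58.0% of all tested genes were.

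**Figure D2:**
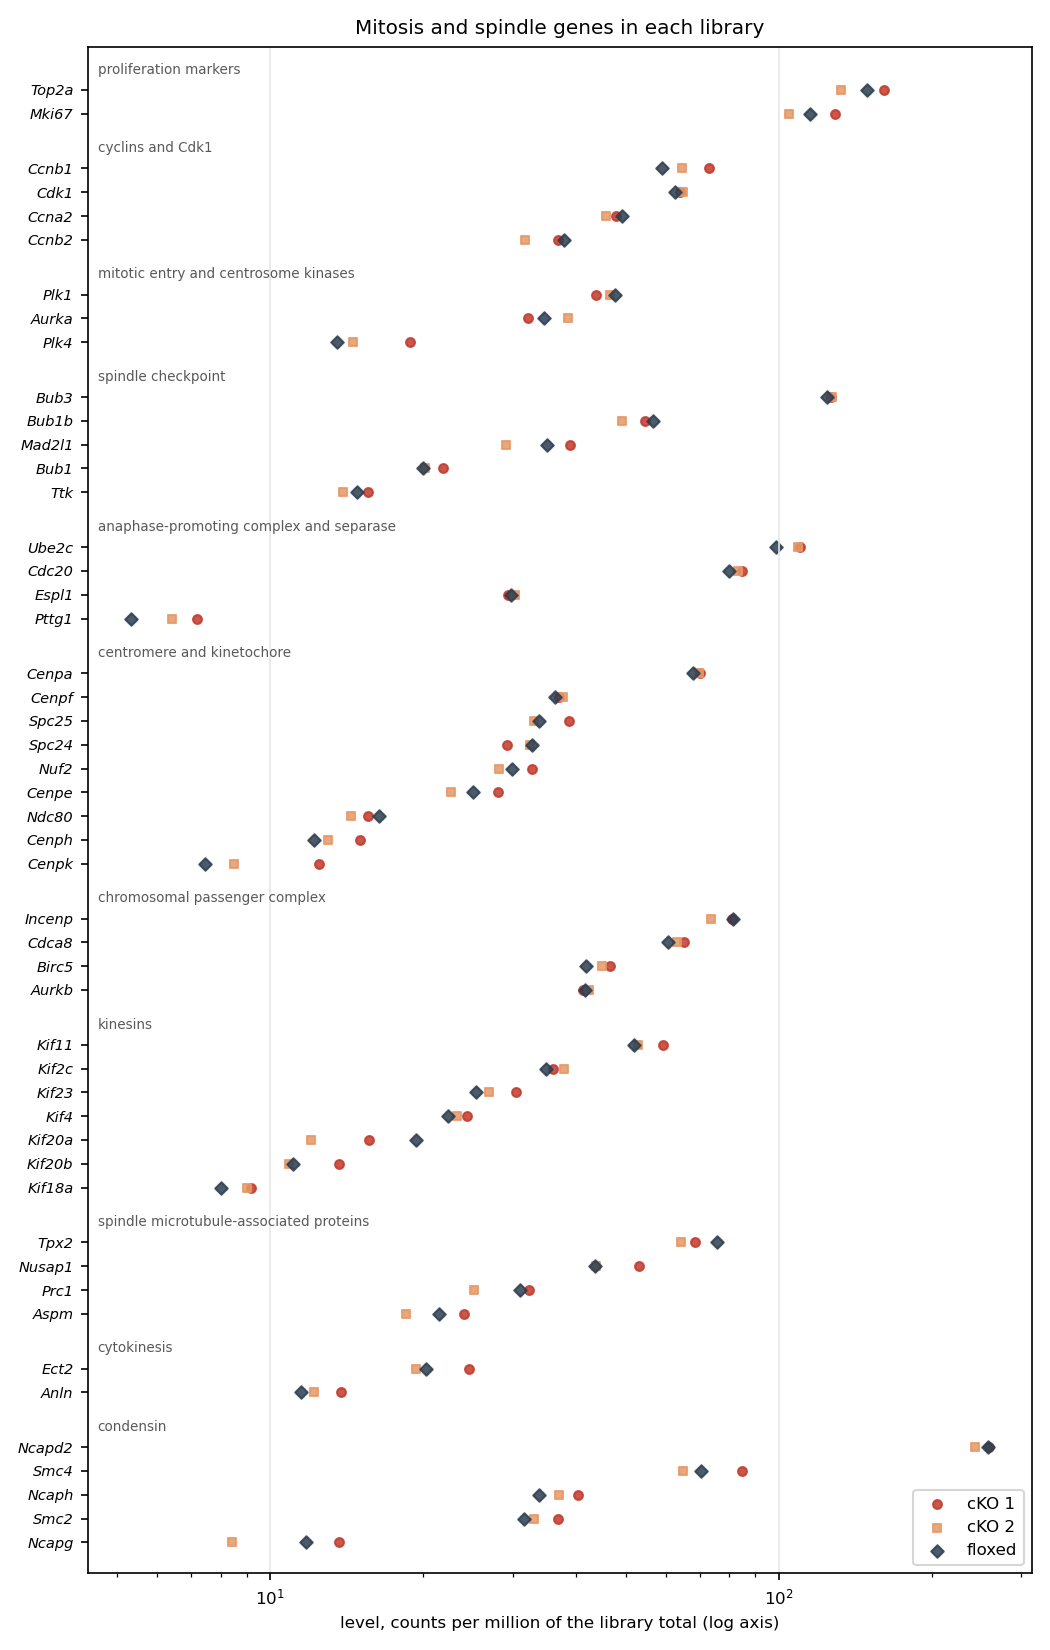
Level of each mitosis and spindle gene in CPM (log axis) in cKO 1 (circles), cKO 2 (squares) and floxed (diamonds), grouped by role. Levels run from 5.32 CPM for Pttg1 in floxed to 259 CPM for Ncapd2 in cKO 1, and within a gene the libraries lie close together.

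Counting intervals separate the libraries further. In cKO 1, 18 of 49 genes were higher than floxed with an interval that leaves out a ratio of 1, a share of 36.7% where 17.8% of all tested genes were, and 2 were lower (4.08%, background 16%). The share for higher genes was 21.1% over the 10421 tested genes in the same range of mean CPM. In cKO 2, 2 of 49 genes were higher (4.08%, background 16.1%) and 13 were lower (26.5%), a share near the background of 24.5%. With TMM scaling, which raises ratios of cKO 2 by 0.04 on the log2 scale, cKO 2 had 6 higher genes (background 21%) and 9 lower (background 19.9%). Markers of meninges, vessels and macrophages stood mostly above floxed in cKO 1 and below it in cKO 2. Of the 49 mitotic genes, 26 lay above floxed in cKO 2, where 7276 of all 16725 tested genes did. Above floxed in cKO 1 were 11 of 11 meninges, 11 of 12 endothelial, 8 of 8 pericyte and 8 of 9 microglia and macrophage markers, and every one of them was below floxed in cKO 2. Over 11 meninges, 12 endothelial, 8 pericyte and 9 microglia and macrophage markers, the summed ratios were 1.56, 1.19, 1.21 and 1.33 in cKO 1. In cKO 2 they were 0.116, 0.592, 0.579 and 0.514. The part of these cells in the mitotic levels was not tested.

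Floxed lay between the cKO libraries for 17 of the 49 genes, and for 6775 of all 16725 tested genes. For the other 32 of the 49 the groups did not overlap. Both cKO libraries lay above floxed for 23 genes (46.9%, background 27.7%) and below it for 9 (18.4%, background 31.8%). Without cKO 2, 37 genes lay above and 12 below, beside 8763 and 7962 of all tested genes. Without cKO 1 these numbers were 26 and 23, beside 7276 and 9449. Beyond counting error in both libraries, 2 genes were higher, Ccnb1 and Ube2c (4.08%, background 5.16%), and 2 were lower, Kif20a and Tpx2 (4.08%, background 7.52%), so neither share was above the background. With TMM scaling Birc5 and Ncaph joined the higher genes, at a background of 6.3%.

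**Figure D3:**
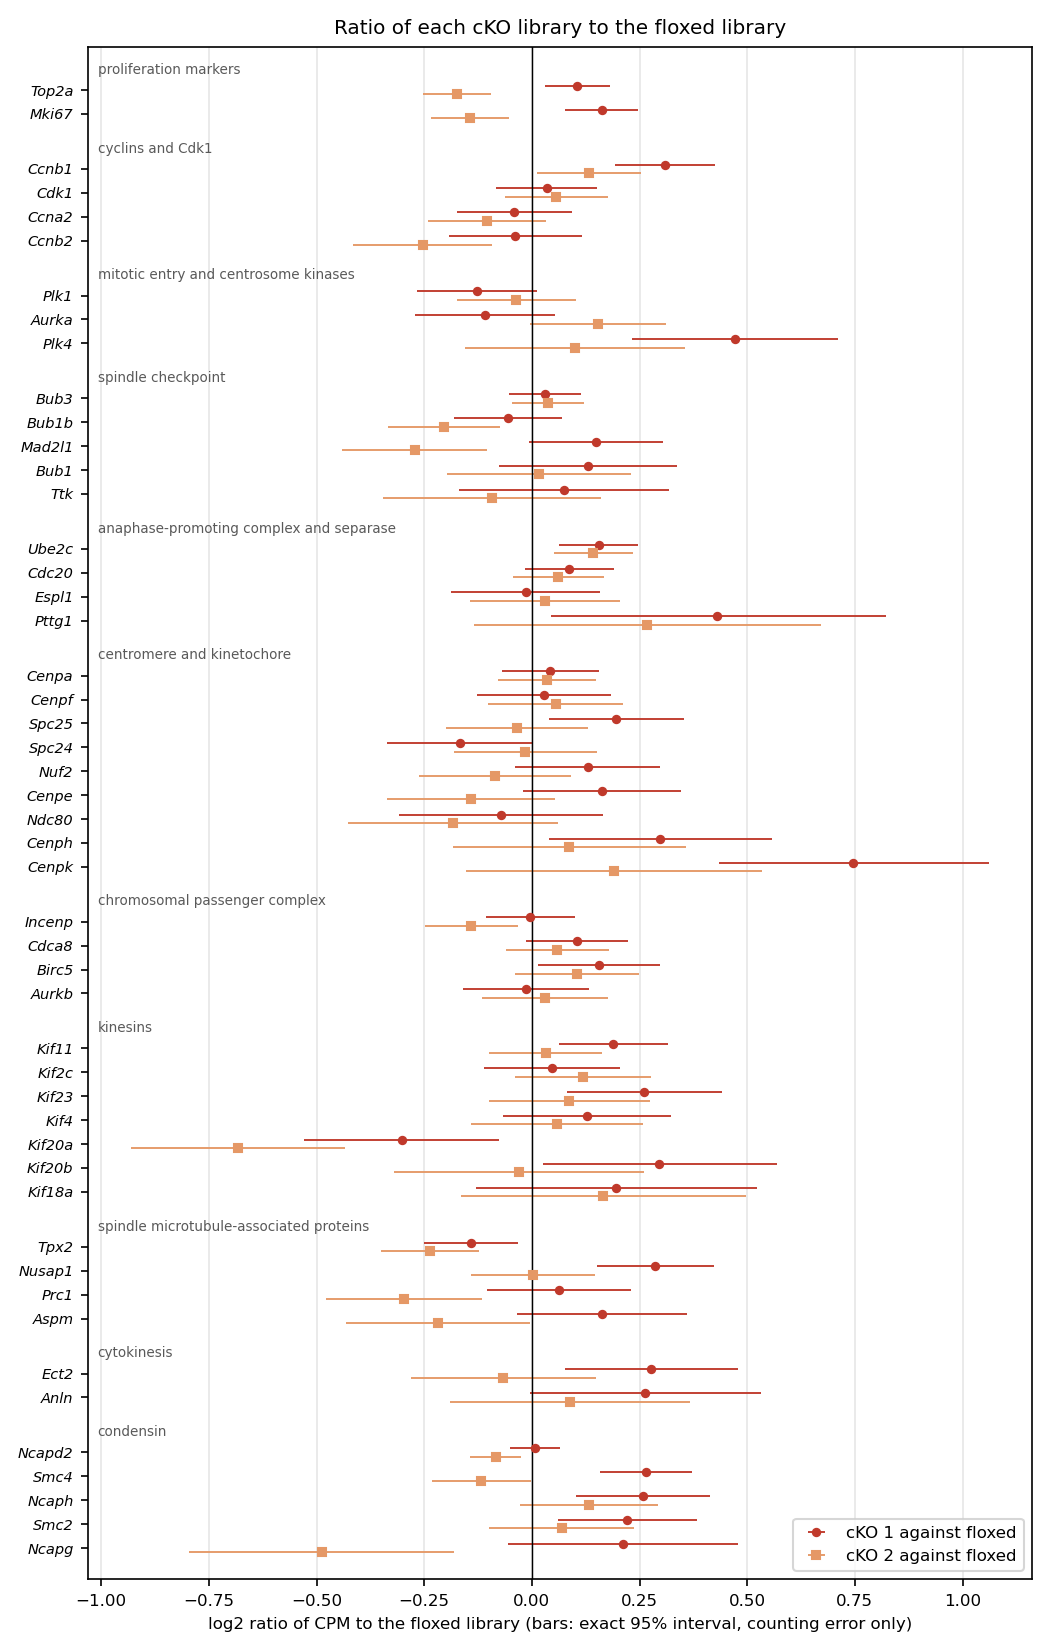
log2 ratio of CPM in cKO 1 (circles) and cKO 2 (squares) to the floxed library for each mitosis and spindle gene, with exact 95% intervals that cover counting error only. Ccnb1 and Ube2c lie to the right of 0 with both intervals, and Kif20a and Tpx2 to the left.

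Among the general markers of dividing cells, Mki67, which encodes the Ki-67 protein that coats mitotic chromosomes, had 129 CPM in cKO 1, 105 in cKO 2 and 115 in floxed. Its ratio was 1.12 in cKO 1 (1.06 to 1.19) and 0.906 in cKO 2 (0.851 to 0.964). Top2a had 161, 132 and 149 CPM in the same order. In both genes the cKO libraries lay on opposite sides of floxed, and the cKO mean, 117 ± 17.4 CPM for Mki67 and 147 ± 20.03 CPM for Top2a (SD, n = 2), was close to the floxed value.

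Of the cyclins, Ccnb1, the mitotic cyclin that activates Cdk1, was the member of this group that stood above floxed in both libraries beyond counting error. It had 73.0 CPM in cKO 1, 64.6 in cKO 2 and 58.9 in floxed. The ratios were 1.24 (1.14 to 1.34) and 1.10 (1.01 to 1.19), and edgeR gave a log2 fold of 0.24 with an SE of 0.14 and an adjusted p of 1. Processed pseudogenes with up to 99.2% identity over 51.7% of the transcript exist for Ccnb1, so its count is uncertain. Cdk1 had 63.9, 65.0 and 62.4 CPM, within counting error of floxed in both libraries. The second mitotic cyclin, Ccnb2, had 36.8 CPM in cKO 1, 31.7 in cKO 2 and 37.8 in floxed, below floxed in both but beyond counting error in cKO 2 alone. The S-phase and early mitotic cyclin Ccna2 had 47.9, 45.9 and 49.3 CPM. The cyclin B genes thus lay on opposite sides of floxed while their kinase stayed at its level.

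The kinases of mitotic entry showed no shared direction. Plk1, the Polo kinase that acts from entry to cytokinesis, had 43.7 CPM in cKO 1, 46.5 in cKO 2 and 47.7 in floxed. Aurka, the Aurora kinase of the spindle poles, had 32.1, 38.5 and 34.6 CPM, and floxed lay between the cKO libraries. All these intervals held a ratio of 1. Plk4, which starts centriole duplication, had 18.8, 14.5 and 13.6 CPM and was higher beyond counting error in cKO 1 alone.

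Of 5 checkpoint genes none was higher than floxed beyond counting error in either library (background 17.8% in cKO 1 and 16.1% in cKO 2). Bub3, the adaptor that brings checkpoint kinases to kinetochores, was the most even of them, with 127 CPM in cKO 1, 128 in cKO 2 and 124 in floxed. Bub1b, which encodes the checkpoint protein BubR1, had 54.6, 49.2 and 56.7 CPM, and its ratio in cKO 2 was 0.868 (0.793 to 0.9502). Mad2l1, the inhibitor of Cdc20, was also lower beyond counting error in cKO 2 (log2 ratio -0.27) and had a log2 ratio of 0.15 in cKO 1. The kinase genes Bub1 and Ttk stayed within counting error in both.

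In the genes of anaphase onset the cKO libraries lay closest together of the 11 role groups, with a median absolute log2 difference of 0.036. Ube2c, the ubiquitin-conjugating enzyme of the anaphase-promoting complex, had 110.2 CPM in cKO 1, 109.3 in cKO 2 and 98.98 in floxed. The ratios were 1.11 (1.05 to 1.19) and 1.10 (1.04 to 1.18), with an edgeR log2 fold of 0.17 (SE 0.12, adjusted p of 1), and both libraries stood clear of floxed. Ube2c shares 22.8% of its exon bases with Tnnc2 on the other strand, which the kit used does not separate. Cdc20 had 84.8, 83.3 and 79.8 CPM, with intervals that held 1. Pttg1, which encodes securin, the inhibitor of separase, had the lowest mean CPM of the members, not scaled to length, with 7.17, 6.40 and 5.32 CPM on 140, 119 and 95 counts. Its log2 ratio in cKO 2, 0.27, was the highest of any member there, with an interval that held 1. Separase itself, Espl1, had log2 ratios of -0.01 and 0.03. Summed over these 4 genes the ratios to floxed were 1.08 in cKO 1 and 1.07 in cKO 2.

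At the centromere and kinetochore, 3 of 9 genes were higher in cKO 1 beyond counting error (33.3%, background 17.8%) and none in cKO 2 (background 16.1%). Cenpa, the histone variant that marks centromeres, had 70.0 CPM in cKO 1, 69.7 in cKO 2 and 68.0 in floxed. Cenpf, a large protein of the outer kinetochore, had 37.0, 37.7 and 36.3 CPM. Both genes were nearly equal in the libraries. Cenpk, a subunit of the inner kinetochore network, had the highest ratio of any member, 1.68 in cKO 1 (1.35 to 2.09), on 12.5 CPM against 7.45 in floxed. In cKO 2 it had 8.50 CPM, a ratio of 1.14 (0.89995 to 1.45), and edgeR gave a log2 fold of 0.51 (SE 0.34, adjusted p of 1). Without cKO 1 the log2 ratio is 0.19. The 4 genes of the NDC80 complex, which grips microtubule ends, showed no shared direction. Spc25 had 38.8, 33.0 and 33.9 CPM, and log2 ratios were 0.13 and -0.09 for Nuf2, -0.07 and -0.18 for Ndc80, and -0.17 and -0.01 for Spc24. The motor gene Cenpe (0.16 and -0.14) was split, and Cenph, a neighbour of Cenpk in the inner kinetochore, was above floxed in both (0.30 and 0.09).

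The chromosomal passenger complex corrects faulty attachments through Aurora B. Incenp, its scaffold, had 81.1 CPM in cKO 1, 73.8 in cKO 2 and 81.3 in floxed, and Cdca8, which encodes borealin, had 65.1, 63.1 and 60.5 CPM. Birc5, which encodes survivin, had log2 ratios of 0.16 and 0.10 and was beyond counting error in cKO 1. The kinase gene Aurkb had 41.1, 42.4 and 41.5 CPM. Within this complex, Birc5 and Cdca8 lay above floxed in both libraries, Incenp lay below it in both, and Aurkb lay on either side.

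Among the 7 kinesins, 5 lay above floxed in both libraries (71.4%, background 27.7%) and 1, Kif20a, below (14.3%, background 31.8%). Kif11 had 59.1 CPM in cKO 1, 53.0 in cKO 2 and 51.8 in floxed. Kif2c, a depolymerase that removes faulty attachments, had 36.0, 37.8 and 34.8 CPM, and Kif23, the motor of the central spindle, 30.4, 27.0 and 25.4 CPM. Of these, Kif11 and Kif23 were beyond counting error in cKO 1, and none was in cKO 2. Kif4, Kif18a and Kif20b had log2 ratios between 0.13 and 0.30 in cKO 1 and between -0.03 and 0.17 in cKO 2.

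Kif20a was the member furthest below floxed. It encodes a kinesin needed for cytokinesis, and in cortex for the divisions of radial glia. It had 15.7 CPM in cKO 1, 12.1 in cKO 2 and 19.3 in floxed, on 306, 224 and 345 counts. The ratios were 0.811 (0.693 to 0.948) and 0.623 (0.525 to 0.740), and edgeR gave a log2 fold of -0.46 with an SE of 0.24 (unadjusted p = 0.119, adjusted p of 1). Both cKO libraries lay below floxed and did not overlap it. However, 29.3% of its exon bases lie on those of Cdc23, a subunit gene of the anaphase-promoting complex on the opposite strand. Cdc23 was also lower, with 73.3, 72.0 and 94.8 CPM, so reads of this pair cannot be assigned with confidence.

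Spindle-binding proteins were split between genes. Tpx2, which activates Aurora A on the spindle, had 68.6 CPM in cKO 1, 64.2 in cKO 2 and 75.7 in floxed. The ratios were 0.907 (0.840 to 0.979) and 0.849 (0.784 to 0.918), and edgeR gave a log2 fold of -0.17 with an SE of 0.13 and an adjusted p of 1. No other gene shares its exon bases. Nusap1, a microtubule-bundling protein, had 53.2, 43.7 and 43.6 CPM, higher beyond counting error in cKO 1 alone. Aspm, which holds spindle poles together in radial glia, had 24.0, 18.5 and 21.5 CPM, and Prc1, the bundler of the central spindle, had log2 ratios of 0.06 and -0.30. In the pair of cytokinesis genes, Ect2, the activator of RhoA at the cleavage furrow, had 24.6, 19.4 and 20.3 CPM, and the furrow scaffold Anln 13.8, 12.2 and 11.5 CPM.

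Condensin compacts mitotic chromosomes, and all 5 of its subunit genes were higher in cKO 1 than in cKO 2. The same held for 40 of the 49 members and for 58.0% of all tested genes. Smc4, a core ATPase subunit, had 84.6 CPM in cKO 1, 65.0 in cKO 2 and 70.5 in floxed, with ratios of 1.201 (1.12 to 1.29) and 0.922 (0.851 to 0.999). Ncapd2, the subunit gene with the highest mean CPM of the members before scaling to length, had 259, 243 and 258 CPM, and Ncapg 13.6, 8.40 and 11.8 CPM. Smc2 (log2 ratios 0.22 and 0.07) and Ncaph (0.26 and 0.13) lay above floxed in both. Floxed thus lay between the cKO libraries for 3 subunits, as it did for 6775 of all 16725 tested genes. It lay below them for 2 (40.0%, background 27.7%).

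**Figure D4:**
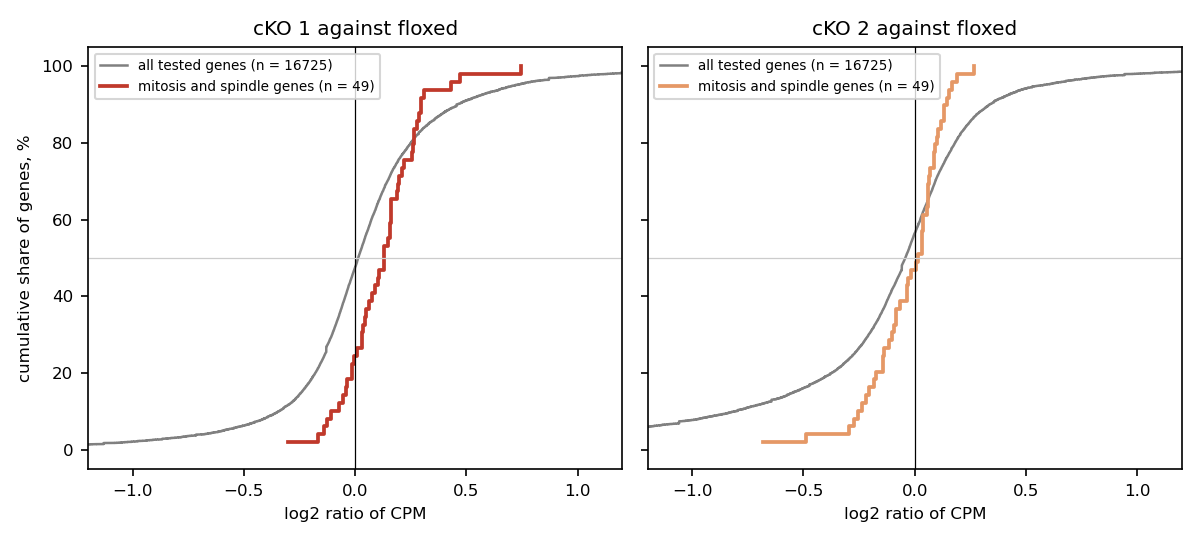
Cumulative share (%) of genes by log2 ratio of CPM to floxed in cKO 1 (left) and cKO 2 (right), for the 49 mitosis and spindle genes (coloured) and all 16725 tested genes (grey). The median of the mitotic genes is 0.13 in cKO 1 and 0.02 in cKO 2, beside 0.01 and -0.04.

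Levels of different genes can be set side by side only per length. As mean RPKM, CPM per kilobase of exon (GENCODE M21), Cdc20 (44.2), Ube2c (40.8) and Ncapd2 (40.5) led the list. Ccnb2 (23.1), Plk1 (20.9), Incenp (18.2) and Bub3 (18.02) followed. Kif18a (0.887), Anln (1.38) and Ncapg (1.59) were the lowest.

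Other genes of the same process are given for comparison. Of 60 further mitotic genes, 0 passed the edgeR test. Their median log2 ratio was 0.06 in cKO 1 and -0.07 in cKO 2, and their summed ratios were 1.01 and 0.947. Beyond counting error in both libraries, 2 were higher, the centromere genes Cenpl and Cenpw (3.33%, background 5.16%), and 4 were lower (6.67%, background 7.52%), shares no higher than those of all tested genes. The lower ones were the spindle gene Ckap2l (22.4, 18.8 and 28.8 CPM in cKO 1, cKO 2 and floxed), Knstrn, the CENP-A chaperone Hjurp and the phosphatase Cdc25b (45.0, 45.2 and 54.8 CPM). Foxm1, a transcription factor of late cell cycle genes, had 61.0, 52.4 and 68.1 CPM, lower in both beyond counting error. It was the only such gene among 16 regulators of this programme (6.25%, background 7.52%). In the cohesin list Smc1a and Mau2 were lower in both beyond counting error (18.2% of 11 genes, background 7.52%). In the centriole and microcephaly list Cep152 and Phc1 were (13.3% of 15 genes). No gene of either list was higher in both beyond counting error (background 5.16%). By any amount, 3 cohesin genes (27.3%) and 1 of the centriole list (6.67%) lay above floxed in both (background 27.7%). DNA replication genes gave medians of 0.06 and -0.03 over 37 genes and summed ratios of 1.04 and 0.988. Of these, 12 lay above floxed in both libraries (32.4%, background 27.7%) and 13 below (35.1%, background 31.8%). Beyond counting error in both, 3 were higher (8.11%, background 5.16%) and 1 was lower (2.70%, background 7.52%).

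Markers of the cells that divide gave other ratios. Summed over 11 radial glia markers, the ratio to floxed was 1.36 in cKO 1 and 1.34 in cKO 2, led by Vim, Nes and Fabp7. Pax6 (71.4, 70.3 and 73.0 CPM) and Sox2 (137, 116 and 119 CPM) stood outside that shift in at least 1 library. Summed over 8 intermediate progenitor markers the ratios were 0.853 and 0.980, and the genes differed in direction. Eomes (132, 133 and 160 CPM), Insm1 and Rgs16 were lower in both libraries beyond counting error, and Gadd45g (56.5, 89.2 and 50.4 CPM) was higher in both. In cKO 2, 4 of the 8 lay above floxed and 4 below. None of these genes passed the edgeR test, and no test was made of the difference between lists.

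**Figure D5:**
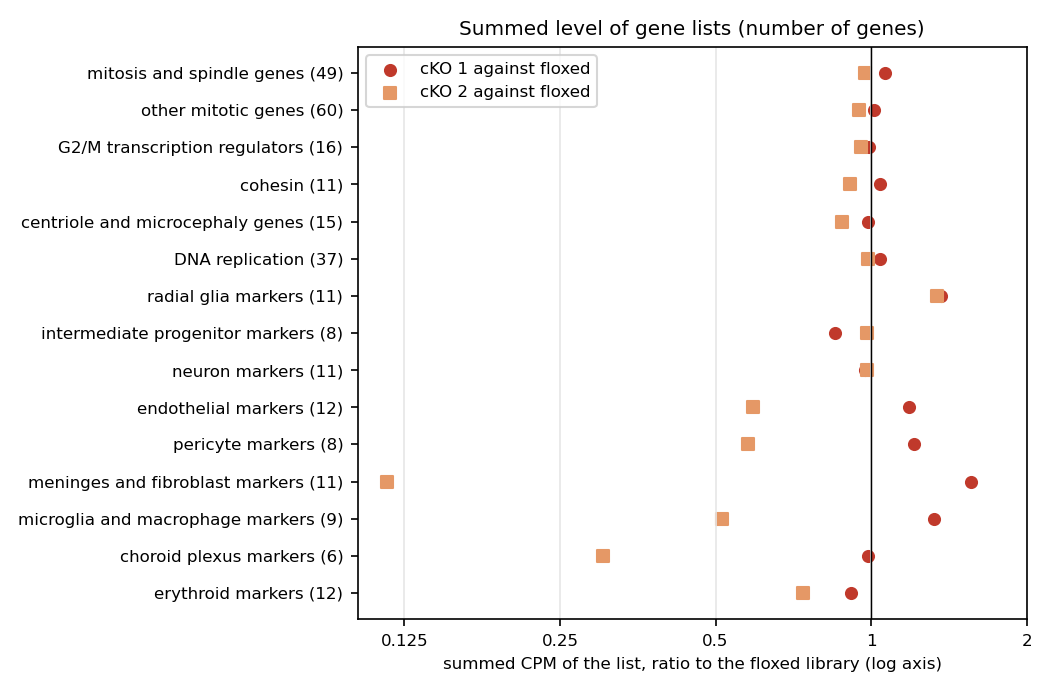
Summed CPM of each gene list as a ratio to the floxed library (log axis) in cKO 1 (circles) and cKO 2 (squares), with the number of genes in brackets. Mitosis and spindle genes stand at 1.06 and 0.973, radial glia markers at 1.36 and 1.34, and meninges and fibroblast markers at 1.56 and 0.116.

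The authors' deposited tables, which compare 1 library with 1 library, marked none of the 49 genes as significant. That mark was not counted over all genes, so no background stands beside it and nothing particular to the mitotic genes is read from it. In the authors' deposited table of cKO 1, 14 of them (28.6%) had an adjusted p under 0.05 with a higher level and 2 (4.08%) with a lower level, where 14.1% and 12.5% of all tested genes did. In the authors' deposited table of cKO 2 these numbers were 1 (2.04%) and 11 (22.4%), where all tested genes gave 14.1% and 22.2%, so the share of lower genes was near the background. Among the 49 genes, Kif20a had the log2 fold furthest from 0 in the authors' deposited table of cKO 2, -0.68.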

How the data were processed

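RNA from cerebral cortex (2 µg of total RNA, Illumina TruSeq RNA kit, which does not mark strand) was sequenced in samples labelled cKO (2) and floxed (2), per the labels' protocols. The authors deposited raw counts per gene, their CPM, log2 folds and p-values in tables of 1 cKO library against 1 floxed library, per the file headers. From the values, the deposited CPM are counts scaled to a library total, with 0 replaced by 0.5. Bowtie2 2.2.3, TopHat2 2.0.12, HTSeq 0.6.0 and mm9 are named, per the submitters' processing notes. The deposited positions match GRCm38 instead: 44 of 49 members lie at the identical position in GENCODE M21, and the other 5 overlap it. No source used here gives the counting options. Columns were assigned to groups by KO or WT in their names, which do not show the sample. The floxed column is identical in both tables and was used once, and the other floxed sample is not analysed here. Tables listed 1134 and 665 genes that the other did not, and these were left out.

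Library totals were recovered from the deposited counts and CPM, and 3 counts correspond to 0.154, 0.161 and 0.168 CPM in cKO 1, cKO 2 and floxed. The test was edgeR 4.0.16 in R 4.3.3 (minimum count 10, TMM, quasi-likelihood, Benjamini-Hochberg over all genes), with 1 residual degree of freedom, so that floxed is assumed to vary like the cKO libraries (common biological coefficient of variation 0.218). DESeq2 1.42.0, limma-voom 3.58.1, other scalings, no filter and leaving out a cKO library were alternatives. The fits were also run on simulated data with less spread than these libraries and larger folds than the members had. That run does not show what the test can find here. SE is the log2 fold over the square root of F. Where libraries are not separate embryos, p-values reflect technical spread alone. Exon overlaps come from GENCODE M21 and similar transcripts from blastn 2.17.0 (at least 95% identity over 200 bases), with promoter windows from RefSeq (GRCm38.p6).

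Members and lists were chosen with earlier results of these data known. Values in every library are given for the 2 members of each role group with the highest mean CPM (3 in groups of 7 or more), for those beyond counting error on 1 side in both cKO libraries, and for the extreme ratios.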

Additional observations from a re-analysis of the deposited data

How the results depend on the processing

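The count of genes called was 0 with edgeR and stayed 0 with DESeq2 size factors, without the filter and with limma-voom, while library totals in edgeR called 1 gene and DESeq2 called 5, none of them a mitosis or spindle gene. For the 27 genes named by rule, all 135 fitted values under 5 other fits kept their sign and their side of the threshold. Those fits use the same libraries, so they do not show how the signs depend on a library. Without cKO 1 and without cKO 2, TMM-scaled log2 ratios had opposite signs for some genes, as for Mki67 (-0.10 and 0.15) and Aurka (0.20 and -0.12). Others kept 1 sign, as Kif20a did (-0.64 and -0.31). The median log2 fold of the 49 genes was lowest, at 0.042, with library totals in edgeR, lay between 0.058 and 0.068 with the other fits, and was 0.059 without cKO 1 and 0.12 without cKO 2. Leaving out a cKO library left 26 to 37 of the 49 genes above floxed, where 7276 to 8763 of all tested genes were. It left 12 to 23 below, where 7962 to 9449 of all tested genes were. Among the 49, the counts beyond counting error were 2 to 18 higher (background 16.1% to 17.8%) and 2 to 13 lower (background 16% to 24.5%). TMM scaling and DESeq2 size factors each gave 4 genes higher in both libraries, and 6 and 7 higher in cKO 2, where library totals gave 2 for both counts.

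Alternatives chosen after seeing the data left out 14 genes that share exon bases with another gene, or Kif20a alone. Among the other 35 genes, beyond counting error 1 was higher in both libraries (background 5.16%) and 1 lower in both (background 7.52%). In cKO 1, 14 of the 35 were higher (background 17.8%) and 1 lower (background 16%). In cKO 2, 1 was higher (background 16.1%) and 8 lower (background 24.5%), with fewer genes counted. Without Kif20a, 1 gene was lower in both (2.08%, background 7.52%) and 1 lower in cKO 1 (2.08%, background 16%). Leaving out a cKO library leaves no residual degree of freedom, so those values carry no test. No paired analysis was possible because floxed is 1 library, so the groups share fewer than 2 numbers.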
